A study of Mus musculus with 26 samples.

Results

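The ephrin, semaphorin and plexin guidance genes were the mouse protein-coding genes with GENCODE M21 symbols beginning Epha, Ephb, Efna, Efnb, Sema or Plxn, together with Nrp1 and Nrp2, that had at least 10 counts in at least 3 of 26 RNA-Seq libraries. Of 53 annotated genes of these families, 47 were members: 5 of 9 EphA receptors, 4 of 5 EphB receptors, all 5 ephrin-A and all 3 ephrin-B ligands, all 20 semaphorins, 8 of 9 plexins and both neuropilins. The same minimum was met by 13362 protein-coding genes of the 55341 genes listed. The other 6 family genes, Epha5, Epha6, Epha8, Epha10, Ephb1 and Plxnc1, had at most 10 counts in any library.

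All libraries came from C2C12 cells, a mouse myoblast line that fuses into myotubes when serum is withdrawn. They were taken at 0 h, which the study calls undifferentiated, or after 24 h in differentiation medium. In the knockdown experiment, wild-type C2C12 cells received a control siRNA (siCtrl) or an siRNA against the methyltransferase SMYD3 (siSMYD3#1 or siSMYD3#2), with 3 libraries for each siRNA and time point. Within each of these 6 groups, 1 library came from a TRIzol extraction and 2 from a NucleoSpin extraction, which also used cells of a different passage, so extraction and passage cannot be told apart. In the overexpression experiment, SMYD3 CL5 cells, a clone carrying HA-Flag-tagged SMYD3 from the retroviral vector pREV, were set against control cells subcloned with the empty vector, with 2 TRIzol libraries for each line and time point. CL5 is 1 clone, so its differences from the vector cells belong to that clone and cannot be told apart from effects of cloning.

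Ephrins are membrane-bound ligands of the Eph receptor tyrosine kinases, and signal where cells touch, in both the receptor-bearing and the ligand-bearing cell. Semaphorins, secreted or membrane-bound, act through plexins, with neuropilins as co-receptors for most of the secreted class 3 members, and plexins act on small GTPases, integrins and the cytoskeleton. In muscle these families are known mainly for motor axon guidance, patterning of the neuromuscular contact and migration of muscle precursors, and several semaphorins are made by the myogenic cells themselves.

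Total counts ran from 14315193 to 60398170 in the 18 siRNA libraries and from 21124675 to 67853386 in the 8 overexpression libraries. Levels are given below as CPM, counts per 1000000 counts after scaling library sizes by TMM, a correction for composition made separately for each experiment. Smyd3, the targeted gene, stood at 20.5 ± 1.09 CPM (SD, n = 3) in siCtrl at 0 h and at 19.5 ± 1.48 CPM at 24 h. It fell with siSMYD3#2 at 24 h by 1.51 on the log2 scale (SE 0.17, adjusted p = 5.06e-05, edgeR) and was not detectably lower in the libraries labelled siSMYD3#1 (log2 fold change -0.24, SE 0.16, adjusted p = 0.414). That limit holds for each siSMYD3#1 result below. Apart from these libraries, the study assayed knockdown by qPCR of Smyd3 and western blot of SMYD3, and tagged SMYD3 in the clones by western blot. In CL5, Smyd3 was at 22.6 ± 2.36 CPM at 24 h against 17.7 ± 0.812 in vector cells (SD, n = 2), and the difference did not pass the test (adjusted p = 0.671); the species of the tagged cDNA is not given in the sources used here. All 9 myoblast and myotube markers of the list were detected in every group, and 7 of them rose in siCtrl between 0 h and 24 h. At 24 h, 5 of the 9 were lower with each siRNA, among them Myog (myogenin, a myogenic transcription factor), with log2 differences of -3.59 for siSMYD3#1 and -1.81 for siSMYD3#2 (adjusted p = 5.4e-06 and 0.00125). The summed level of 5 endothelial markers stayed at or under 2.41 CPM in each library, that of 5 Schwann and neural markers at or under 3.68 CPM and that of 5 blood and immune markers at or under 6.75 CPM, with Adgre1 at 0 throughout. Of the endothelial markers, the 2 high enough to test, Tek and Vwf, rose over time in siCtrl by 2.40 and 2.17 on the log2 scale (adjusted p = 0.00763 and 0.00928), to 0.905 ± 0.570 and 0.733 ± 0.305 CPM (SD, n = 3), and their part in the members' changes was not tested. In such bulk RNA, fewer cells of a type and less RNA per cell cannot be told apart.

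Sequences are shown for the siRNAs, because the members that passed the test against siCtrl differed between them. Promoters are shown for Sema3d, with the largest rise over time, and for the genes changed over time with CAGCTG in a promoter window. In the siRNA guide strands, as the study lists them and 5′ to 3′, the capitals mark guide positions 2 to 8, the seed, and the 2-base overhangs are left out.
siSMYD3#1 guide strand: gUUGGGGUcacagcuguga
siSMYD3#2 guide strand: uCAAAUCUucaaucaggcu
siCtrl guide strand: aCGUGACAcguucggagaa
The 19-base target of each SMYD3 siRNA was found in Smyd3 and in no other tested gene when the longest protein-coding transcript of each gene was searched. The complement of the siSMYD3#1 seed, ACCCCAA, occurred in 27 of 45 members and in 26.9% of 12620 tested genes with such a transcript. The complement of the siSMYD3#2 seed, AGATTTG, occurred in 5 of 45 members and in 23.1% of those genes, and that of the siCtrl seed, TGTCACG, in 3 of 45 members and in 7.85%. The members' transcripts are longer, with a median of 4540 bases against 3160. The 3 windows below are sites in members that passed the test with the siRNA named, with the seed complement in capitals.
Sema3e, siSMYD3#1 seed, transcript bases 1140 to 1159: gatgtccttttgACCCCAAc
Sema6b, siSMYD3#1 seed, transcript bases 680 to 699: gctgcccctatgACCCCAAa
Nrp1, siSMYD3#2 seed, transcript bases 1516 to 1535: ggtatatctatgAGATTTGa
Each of these transcripts (6861, 3736 and 3597 bases) held 1 such site, while Sema3b and Sema6b held none for siSMYD3#2. These matches describe letters only, and their part in any change was not tested.

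The promoter windows, from RefSeq on GRCm38.p6, run from 250 bases before to 50 bases after a transcription start. The letters searched were CAGCTG, an E-box form bound by myogenic basic helix-loop-helix factors, which reads the same on both strands and is in capitals below. Other E-box forms were not searched, so a window without CAGCTG may hold one. Of the 47 members, 41 had an entry. Sema3b, Sema6a and Plxna1, which rose over time in siCtrl, had none. CAGCTG occurred in 16.3% of 32851 promoter windows in the table, in 7 of the 55 windows of members (12.7%), in 2 of 11 windows of the genes that rose over time in siCtrl and in 1 of 2 of those that fell.
Sema3d promoter, chr5:12382916-12383215, plus strand: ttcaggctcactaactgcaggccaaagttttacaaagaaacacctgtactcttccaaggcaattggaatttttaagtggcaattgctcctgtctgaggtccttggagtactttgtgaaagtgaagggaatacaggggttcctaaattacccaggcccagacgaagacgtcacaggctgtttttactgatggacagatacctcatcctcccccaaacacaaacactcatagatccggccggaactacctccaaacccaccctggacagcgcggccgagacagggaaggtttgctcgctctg
Ephb3 promoter, chr16:21204545-21204844, plus strand: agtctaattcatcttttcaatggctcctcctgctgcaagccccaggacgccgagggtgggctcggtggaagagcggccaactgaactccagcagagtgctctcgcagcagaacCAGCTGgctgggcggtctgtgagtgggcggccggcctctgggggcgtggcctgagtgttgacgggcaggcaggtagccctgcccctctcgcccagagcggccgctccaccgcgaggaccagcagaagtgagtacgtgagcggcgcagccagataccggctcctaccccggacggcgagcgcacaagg
Sema6c promoter, chr3:95164089-95164388, plus strand: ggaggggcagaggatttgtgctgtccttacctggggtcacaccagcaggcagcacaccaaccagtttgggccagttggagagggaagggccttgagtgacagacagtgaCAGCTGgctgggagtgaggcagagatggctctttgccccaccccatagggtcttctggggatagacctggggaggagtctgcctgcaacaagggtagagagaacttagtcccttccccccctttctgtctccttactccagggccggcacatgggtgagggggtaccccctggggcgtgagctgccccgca
Sema7a promoter, chr9:57939862-57940161, plus strand: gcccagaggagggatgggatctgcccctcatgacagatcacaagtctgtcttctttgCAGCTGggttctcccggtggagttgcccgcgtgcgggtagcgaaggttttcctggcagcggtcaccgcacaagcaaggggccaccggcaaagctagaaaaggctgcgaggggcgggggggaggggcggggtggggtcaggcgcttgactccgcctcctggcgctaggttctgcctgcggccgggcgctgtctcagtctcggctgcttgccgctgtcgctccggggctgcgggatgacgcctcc
CAGCTG began 137 bases before the start in Ephb3, 141 bases before it in Sema6c, both of which rose, and 193 bases before it in Sema7a, which fell. For these 3 genes only windows that held CAGCTG are shown. The Sema6c window lies at a start inside the gene, whose GENCODE M21 span begins at 95160457. The letters CCCTCC and GAGGGG, which the study's text gives as bound by SMYD3, were searched on both strands. CCCTCC was in 39.2% of all windows and 69.1% of members' windows, and GAGGGG in 32.9% and 52.7%. Base composition was not matched in these shares.

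To compare genes of different length, CPM was divided by exon length in kb (CPM per kb). In undifferentiated siCtrl cells the highest level per length was that of Plxnb2, a receptor for class 4 semaphorins, at 70.7 CPM per kb. Epha2, the most abundant EphA receptor, followed with 43.3 CPM per kb, and Sema7a, a GPI-anchored semaphorin, with 26.3. Plxna1 stood at 23.8 and Plxnd1, the receptor of Sema3e, at 21.8 CPM per kb. In the other classes the highest members were Ephb4 with 17.4, Efnb1 with 13.5, Nrp2 with 13.4 and Efna1 with 9.77 CPM per kb. In CPM, Plxnb2 held 589, 481 and 568 in the TRIzol library and the 2 NucleoSpin libraries of siCtrl at 0 h, and Epha2 held 198, 192 and 217. Ephb4 held 73.4, 77.0 and 91.9 CPM, Nrp2 217, 126 and 134, Efnb1 60.9, 38.6 and 40.5, and Efna1 23.1, 14.4 and 16.2. The last 3 were highest in the TRIzol library. Plxna1 and Plxnd1 did not separate beyond their spread in CPM, 216 ± 47.5 against 159 ± 45.1 (SD, n = 3). At the low end, Plxnb3 and Sema5b had at most 3 counts in each siCtrl library at 0 h and were too low for the test in the siRNA experiment, which therefore covered 45 members. Exons of 8 members overlap those of an antisense gene, and exons of Nrp1 and Sema4a hold a microRNA of the same strand; the strand setting of the counting is not given in the sources used here.

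**Figure D1:**
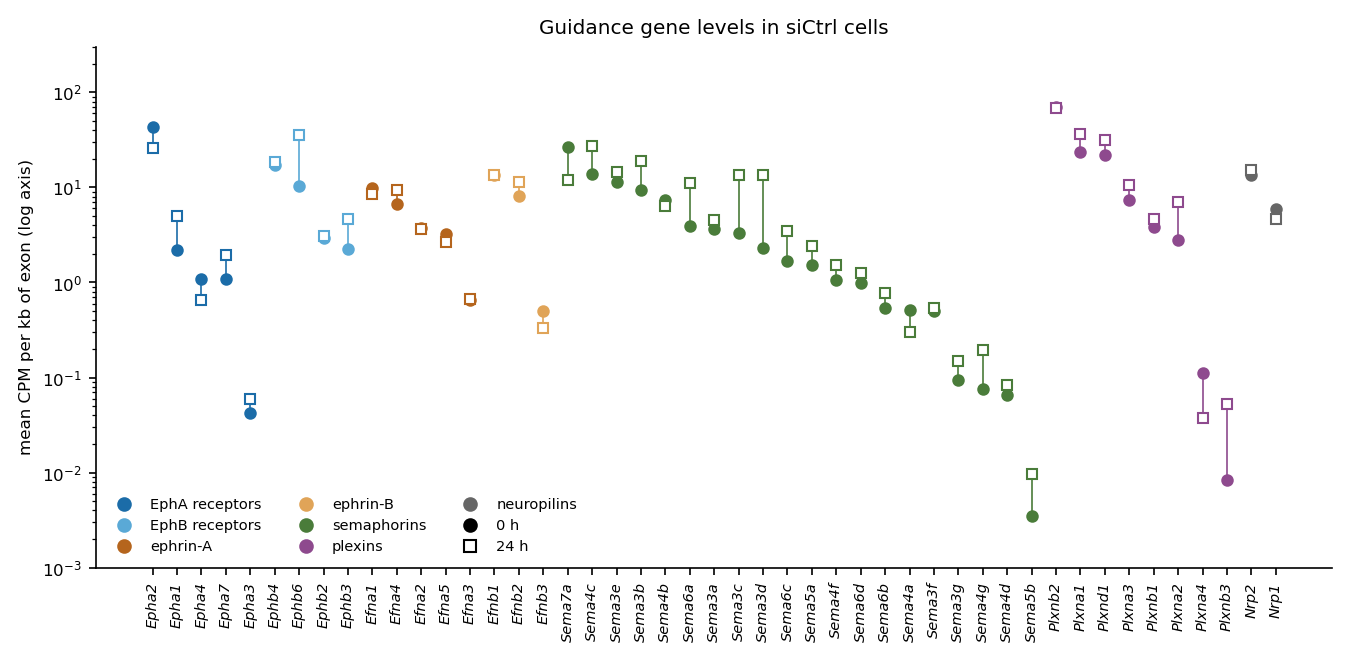
Mean level of each of the 47 members in siCtrl cells (n = 3), in CPM per kb of exon on a log axis, at 0 h (filled circles) and 24 h (open squares), coloured by class and ordered within class by the 0 h level. Plxnb2, at 70.7 CPM per kb, was the highest, and Sema5b and Plxnb3 lay below 0.1 at both time points.

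The first comparison asked how the members changed as control cells differentiated. Between 0 h and 24 h in siCtrl, 14 of 45 members changed, 12 upward and 2 downward (edgeR quasi-likelihood test, adjusted p under 0.01 over all 15820 genes). Of all genes, 29.4% were called, 14.6% upward and 14.8% downward, so the members' share called was near the background and their calls leaned upward. The median log2 change was 0.35 over the members and 0.03 over all genes. Among the classes, 7 semaphorins, 2 EphB receptors, 2 plexins and 1 EphA receptor rose, 1 semaphorin and 1 EphA receptor fell, and no ephrin or neuropilin passed (ephrins and neuropilins lay between -0.55 and 0.48). The semaphorins' median log2 change was 0.55 over 19 tested.

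**Figure D2:**
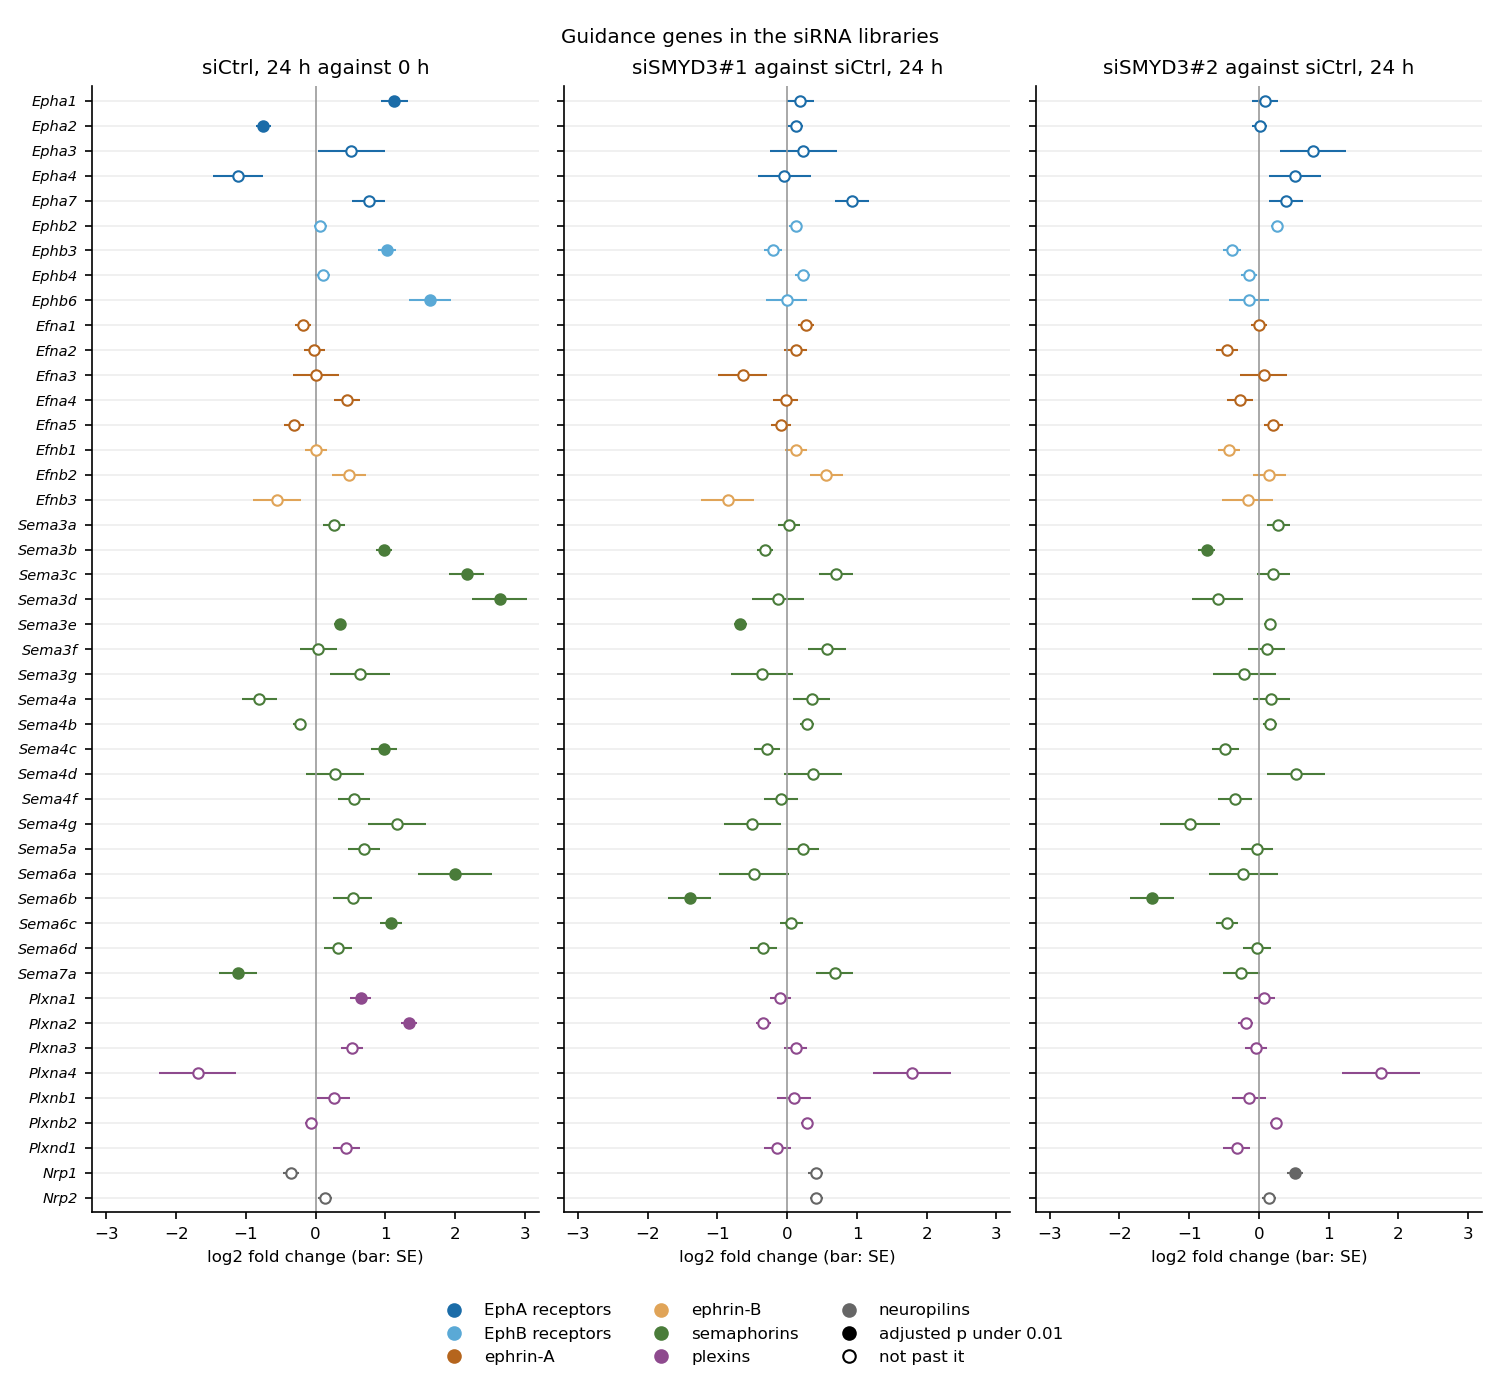
Log2 fold change with its SE for the 45 tested members in siCtrl between 24 h and 0 h and for each SMYD3 siRNA against siCtrl at 24 h, coloured by class; filled points passed adjusted p under 0.01 (edgeR). Filled points number 14 in the left panel, 2 in the middle and 3 in the right.

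Of the secreted class 3 semaphorins, Sema3d (chromosome 5, 12383385 to 12588948, GRCm38) rose most. Its level was 10.2 CPM in the TRIzol library and 25.0 and 23.9 in the NucleoSpin libraries at 0 h, against 141, 93.8 and 115 at 24 h. Every 24 h library lay above every 0 h library, and the log2 fold change was 2.64 (SE 0.39, adjusted p = 0.000154). Sema3c, on the same chromosome (17574281 to 17730268), went from 2.28 CPM in the TRIzol and 35.4 and 32.6 in the NucleoSpin libraries to 16.9, 137 and 138. Its time points overlapped because the TRIzol libraries were far lower throughout, while within each extraction it rose (log2 fold change 2.17, SE 0.25, adjusted p = 1.03e-05; 2.00 in the NucleoSpin libraries alone). Sema3b rose from 32.6, 47.3 and 53.5 CPM to 55.7, 108 and 106 (log2 fold change 0.98, SE 0.12, adjusted p = 2.81e-06). Sema3e, the ligand that binds Plxnd1 directly, went from 101, 110 and 109 CPM to 149, 126 and 133, a log2 change of 0.35 (SE 0.09, adjusted p = 0.00565). This small rise did not pass in the NucleoSpin libraries alone (0.23, adjusted p = 0.0606) or when any of 12 single libraries was left out, among them each siCtrl library and each siSMYD3#1 library at 0 h (adjusted p up to 0.0877).

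Among membrane-bound semaphorins, Sema6a was at 3.57 CPM in the TRIzol library and 46.9 and 52.3 in the NucleoSpin libraries at 0 h, and at 54.1, 118 and 121 at 24 h. Its log2 fold change was 2.00 (SE 0.53, adjusted p = 0.00934), and 1.25 in the NucleoSpin libraries alone (adjusted p = 3.42e-08). Blocking on replicate gave an adjusted p of 0.0133, and leaving out any library other than the siSMYD3#2 TRIzol libraries also put it above 0.01 (up to 0.0434). Sema6c rose from 5.82, 11.9 and 12.3 CPM to 19.1, 22.9 and 19.3 (log2 fold change 1.08, SE 0.16, adjusted p = 3.62e-05). Sema4c, a Plxnb2 ligand, rose from 43.8, 70.2 and 78.0 CPM to 112, 133 and 127 (0.98, SE 0.19, adjusted p = 0.000758). Sema7a fell, from 119 CPM in the TRIzol and 71.2 and 70.2 in the NucleoSpin libraries to 53.5, 32.7 and 33.7. No 24 h library reached a 0 h one, and the log2 change was -1.11 (SE 0.27, adjusted p = 0.00398). This call was lost when a NucleoSpin library at 0 h or any siCtrl library at 24 h was left out (adjusted p up to 0.0241).

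On the receptor side, Plxna2, a plexin that serves class 6 semaphorins, rose from 43.9, 47.9 and 50.9 CPM to 121, 115 and 125 (log2 fold change 1.34, SE 0.12, adjusted p = 9.73e-08). The libraries of each time point lay within a narrow range in both extractions. Plxna1 went from 267, 173 and 208 CPM to 295, 340 and 357 (0.65, SE 0.15, adjusted p = 0.00192), and lost its call without a NucleoSpin library at 0 h or one at 24 h (adjusted p = 0.0123 at most). Ephb6, an Eph receptor without kinase activity, rose from 36.1, 38.6 and 43.4 CPM to 223, 95.5 and 81.4. The TRIzol library rose furthest, with a log2 fold change of 1.64 over all libraries (SE 0.30, adjusted p = 0.000594) and 1.09 in the NucleoSpin libraries alone. Ephb3 rose from 17.4, 11.3 and 16.4 CPM to 35.9, 30.0 and 26.8 (1.03, SE 0.13, adjusted p = 4.9e-06), and Epha1 from 6.48, 8.34 and 10.8 CPM to 10.9, 23.6 and 23.9 (1.13, SE 0.19, adjusted p = 0.000117). Epha2 moved the other way, from 198, 192 and 217 CPM to 87.1, 140 and 138 (-0.75, SE 0.11, adjusted p = 3.81e-05). Its 24 h libraries all lay below its 0 h libraries.

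None of the ephrins, the ligands of the Eph receptors, passed in siCtrl. The 5 ephrin-A genes lay between -0.31 and 0.45 on the log2 scale and the 3 ephrin-B genes between -0.55 and 0.48, with Efna4 nearest to the threshold (0.45, SE 0.18, adjusted p = 0.0476). Efnb2, a ligand of EphB receptors, was at 46.5, 60.7 and 60.7 CPM at 0 h and 86.2, 77.9 and 69.9 at 24 h (0.48, SE 0.24, adjusted p = 0.129). Of the members that did not pass, Plxna4, a receptor of class 3 and class 6 semaphorins, had the largest fitted change. It was at 3.09 CPM in the TRIzol and 0.732 and 0.874 in the NucleoSpin libraries at 0 h and at 1.23, 0.0877 and 0.261 at 24 h (-1.69, SE 0.55, adjusted p = 0.0209). Sema4g went from 0.663, 0.549 and 0.772 CPM to 0.598, 2.06 and 2.35 (1.17, SE 0.42, adjusted p = 0.0297), above its 0 h level in the NucleoSpin libraries and not in the TRIzol library. Epha4, a receptor for both ephrin classes, went from 17.3, 4.57 and 4.44 CPM to 12.7, 1.58 and 1.44 (-1.11, SE 0.36, adjusted p = 0.0217), lower within each extraction.

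The extraction covariate mattered to these calls. Without it, Sema3c, Sema6a, Sema7a, Epha1, Sema3b, Sema3e, Sema4c, Sema6c and Plxna1 no longer passed (adjusted p from 0.0109 to 0.323), and 5 of the 14 did. With all 26 libraries in 1 fit, Plxna1 (adjusted p = 0.0229) and Sema3e (0.332) no longer passed.

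**Figure D3:**
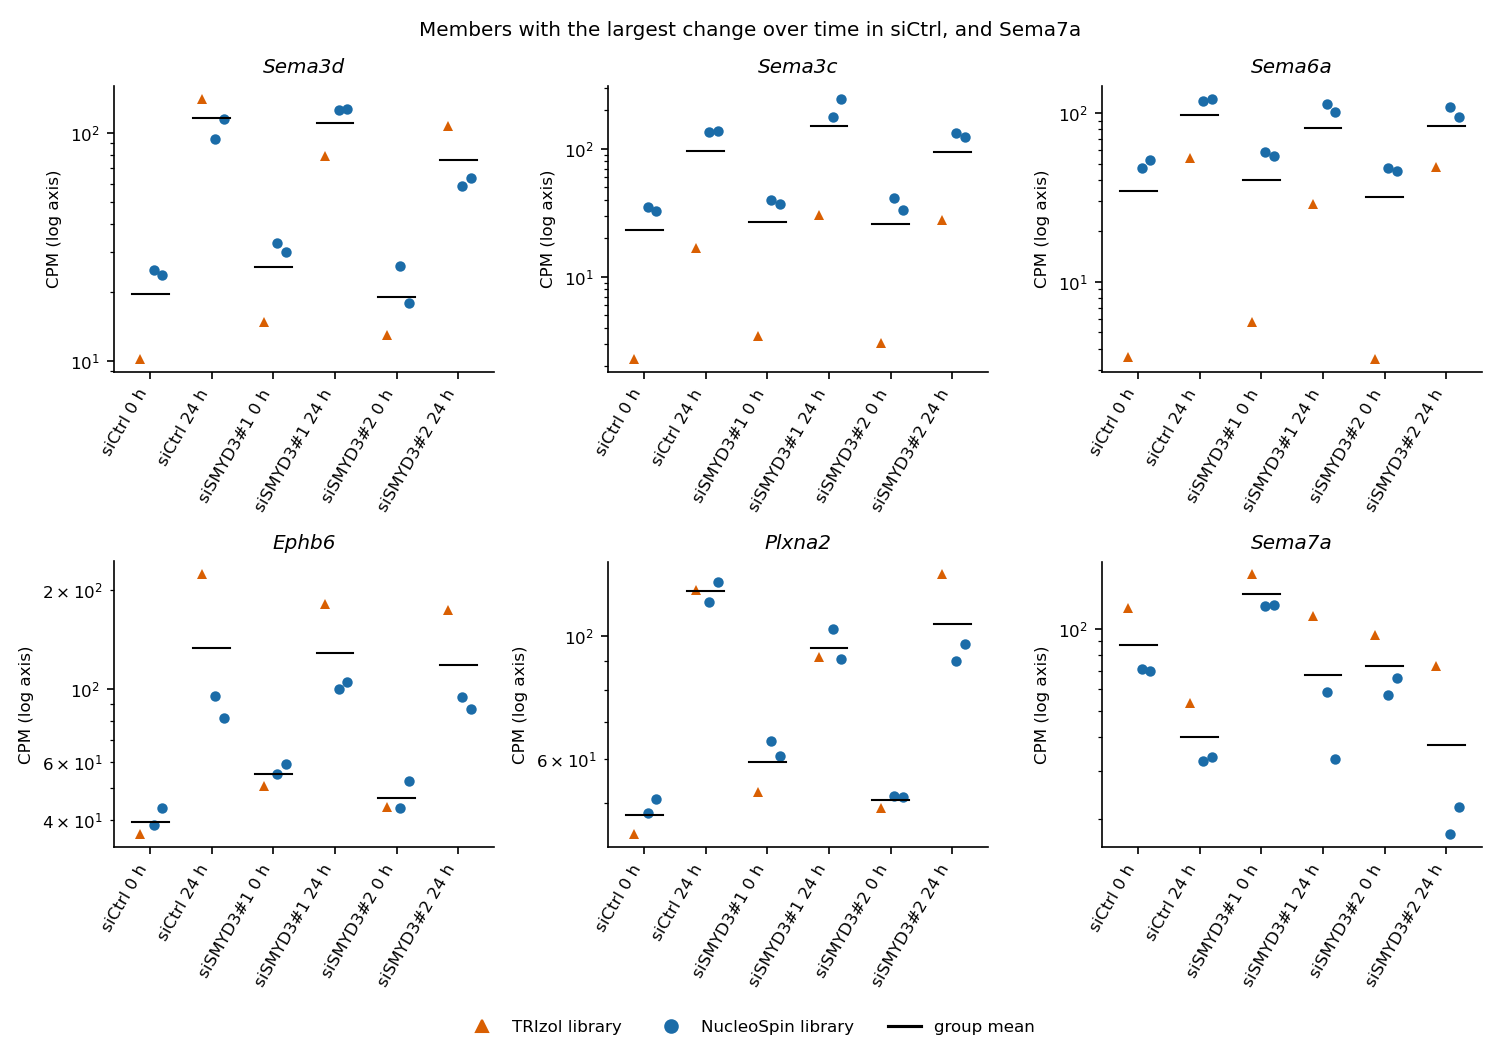
Level in CPM (log axis) of the 5 members with the largest change among those that passed over time in siCtrl, and of Sema7a, in each of the 18 siRNA libraries; triangles are TRIzol libraries, circles NucleoSpin libraries and bars group means. At 24 h, Sema3d lay between 93.8 and 141 CPM in siCtrl, above all 0 h libraries, while Sema3c and Sema6a separated by extraction at both time points.

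Several members differed between the extractions before any differentiation. In the 9 siRNA libraries at 0 h, the 3 TRIzol libraries lay below all 6 NucleoSpin libraries, with medians at least 2-fold apart, for 4 of 45 members (5.34% of all genes tested), namely Sema6a, Sema3c, Sema4f and Sema6b. They lay above them for another 4, Epha4, Sema4d, Plxna4 and Efnb3 (8.44% of all genes tested). The median level of Sema6a was 3.57 CPM in TRIzol and 49.6 in NucleoSpin libraries, a 13.9-fold gap, and that of Sema3c 3.04 and 36.3 CPM, an 11.9-fold gap. Epha4 was 3.83-fold higher in TRIzol libraries (17.3 against 4.51 CPM). These are descriptions without a test. In vector cells, all from TRIzol, Sema6a was at 24.8 and 33.2 CPM at 0 h and Sema3c at 14.8 and 17.8 CPM, on a scale set within that experiment.

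The second question was whether the members depended on the SMYD3 siRNAs. At 24 h, 2 of 45 members passed with siSMYD3#1 in edgeR, both lower, where 5.85% of all genes were called (2.91% higher and 2.94% lower). Nrp2 was nearest to the threshold without passing, and was higher (0.42, SE 0.10, adjusted p = 0.0101, edgeR). DESeq2 called 6 members with siSMYD3#1, 4 higher and 2 lower, so the direction of these calls depended on the method. The DESeq2 share of all genes is not given here. With siSMYD3#2, 3 members passed, 1 higher and 2 lower, where 3.70% of all genes were called (1.66% higher and 2.04% lower). Counts of 2 and 3 are too few to set the members apart from that background. The members' median log2 difference was 0.10 and -0.02. None of the 5 members with the largest called change over time passed for either siRNA: Sema3d stood at -0.13 (SE 0.37) with siSMYD3#1 and -0.59 (SE 0.37) with siSMYD3#2, and Sema3c at 0.70 (SE 0.24) and 0.21 (SE 0.24). Plxna2 stood at -0.34 (SE 0.11, adjusted p = 0.0667) and -0.19 (SE 0.11). Ephb6 stood at -0.01 (SE 0.29) and -0.14 (SE 0.29), and Sema6a at -0.48 (SE 0.50) and -0.22 (SE 0.50). A difference of several times its SE could still miss the threshold, as for Plxna2, so siRNA effects on these genes are not excluded. Plxna4 had large positive differences that did not pass (1.79, SE 0.56, adjusted p = 0.0462, and 1.75, SE 0.56, adjusted p = 0.0626), at 4.51, 0.725 and 0.495 CPM with siSMYD3#1. Over the same libraries, 5 of the 9 myoblast and myotube markers were lower with each siRNA.

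Sema3e (chromosome 5, 14025276 to 14256689) was lower with siSMYD3#1 at both time points. At 24 h it was at 95.3 CPM in the TRIzol and 73.8 and 87.4 in the NucleoSpin libraries labelled siSMYD3#1, against 149, 126 and 133 in siCtrl. All 3 libraries lay below all 3 controls, a log2 difference of -0.67 (SE 0.09, adjusted p = 0.000101), and the call held when any single library was left out, and not with all 26 libraries in 1 fit (adjusted p = 0.139). At 0 h it was at 71.4, 71.4 and 73.7 CPM against 101, 110 and 109 (-0.56, SE 0.09, adjusted p = 0.00195). Sema3e was the 1 member called at 0 h, where 1.43% of all genes were called with siSMYD3#1, 0.853% downward. The 0 h call was lost when a NucleoSpin siCtrl library or any siSMYD3#1 library at 0 h was left out (adjusted p up to 0.0218), without the extraction covariate (0.0426) and with all 26 libraries in 1 fit (0.504). With siSMYD3#2, Sema3e was at 135 and 152 CPM in the NucleoSpin and 171 in the TRIzol library at 24 h, in the range of siCtrl and above (0.16, SE 0.09, adjusted p = 0.324). Tested directly, Sema3e was lower with siSMYD3#1 than with siSMYD3#2 (log2 difference -0.84, SE 0.09, adjusted p = 3.63e-05; 0.0828 in 1 fit). It was the 1 member to differ between the siRNAs at 24 h, where 3.36% of all genes did, 1.31% downward. Smyd3 itself was higher with siSMYD3#1 than with siSMYD3#2 in that comparison, by 1.27 on the log2 scale (SE 0.17, adjusted p = 0.000176).

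Sema6b (chromosome 17, 56123085 to 56140343), a membrane-bound ligand of A-type plexins, was lower with both siRNAs at 24 h. It was a low gene, at 1.34 CPM in the TRIzol and 4.12 and 3.66 in the NucleoSpin libraries of siCtrl, with 38 to 94 counts. With siSMYD3#1 it was at 0.49 CPM in the TRIzol and 2.03 and 0.778 in the NucleoSpin libraries, and with siSMYD3#2 at 0.51, 0.788 and 1.79. Within each extraction every knockdown library lay below siCtrl, while over all libraries the groups overlapped. The log2 differences were -1.40 (SE 0.31, adjusted p = 0.00496) and -1.53 (SE 0.32, adjusted p = 0.00495), and both comparisons share the siCtrl libraries. Each call was lost on leaving out any siCtrl library at 24 h, or the TRIzol or 1 NucleoSpin library of that siRNA (adjusted p up to 0.0272 and 0.0408), and the siSMYD3#1 call also in the NucleoSpin libraries alone (adjusted p = 0.0108).

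Sema3b (chromosome 9, 107597674 to 107609229), which rose over time in siCtrl, was at 35.3 CPM in the TRIzol and 65.8 and 57.5 in the NucleoSpin libraries with siSMYD3#2 at 24 h, against 55.7, 108 and 106. Each lay below the siCtrl library of its extraction, and the log2 difference was -0.75 (SE 0.12, adjusted p = 0.000597). With siSMYD3#1 it was at 45.9, 83.2 and 85.9 CPM (-0.32, SE 0.12, adjusted p = 0.0873), and the direct test between the siRNAs did not pass either (0.43, SE 0.12, adjusted p = 0.0278). Nrp1 (chromosome 8, 128358604 to 128503363), a co-receptor for class 3 semaphorins and for VEGF, was higher with siSMYD3#2. It was at 87.6 CPM in the TRIzol and 54.8 and 55.5 in the NucleoSpin libraries against 48.0, 41.7 and 45.5 (0.52, SE 0.11, adjusted p = 0.00535). With siSMYD3#1 its 65.7, 58.8 and 54.8 CPM also lay above all 3 siCtrl libraries, and the difference did not pass (0.41, SE 0.11, adjusted p = 0.0204). The siSMYD3#2 call of Nrp1 did not hold in the NucleoSpin libraries alone (0.34, adjusted p = 0.016), nor without the TRIzol or 1 NucleoSpin library of siCtrl or of siSMYD3#2 at 24 h (adjusted p up to 0.0325). Without the extraction covariate neither Nrp1 (adjusted p = 0.301), Sema3b (0.394) nor Sema6b (0.435 and 0.429) passed, nor did they in 1 fit of all libraries (0.579, 0.016, and 0.0169 and 0.0251). Nrp1 shares 80 exon bases with Mir1903 on the same strand.

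**Figure D4:**
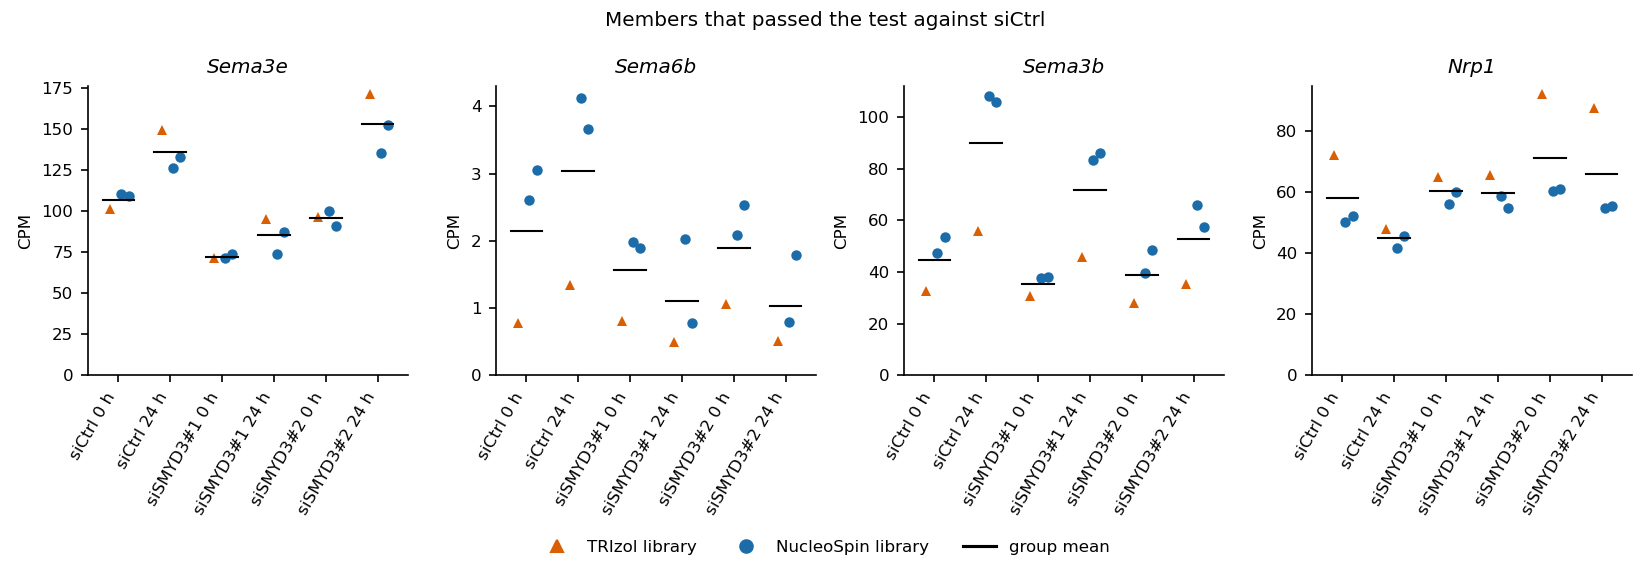
Level in CPM of the 4 members that passed the test for an siRNA against siCtrl, in each of the 18 siRNA libraries, by siRNA and time point; triangles are TRIzol libraries, circles NucleoSpin libraries and bars group means. Sema3e at 24 h lay between 73.8 and 95.3 CPM with siSMYD3#1, below the 126 to 149 CPM of siCtrl.

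At 0 h, 0 members passed with siSMYD3#2 in edgeR, where 0.531% of all genes were called; 5 of 45 had an unadjusted p under 0.05, as did 10.1% of all genes, and DESeq2 called 0 members and 1.73% of all genes. Whether an siRNA effect changed between 0 h and 24 h was tested as a difference of differences. For siSMYD3#1, 0 members passed in edgeR (0.215% of all genes), 7 of 45 had an unadjusted p under 0.05 (8.77% of all genes) and DESeq2 called 0 (0.927% of all genes). The smallest adjusted p was that of Plxna2, with log2 differences from siCtrl of -0.34 at 24 h and 0.32 at 0 h (difference -0.65, SE 0.16, adjusted p = 0.0844). For siSMYD3#2, 0 passed in edgeR (0.0190% of all genes), 6 of 45 had an unadjusted p under 0.05 (10%, or 1585, of all genes) and DESeq2 called 0 (0.850% of all genes); Sema6b had the largest difference, -1.41 (SE 0.43, adjusted p = 0.203).

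The third comparison set the SMYD3 CL5 clone against vector cells. Myog was already higher in CL5 at 0 h, at 48.9 ± 46.7 CPM against 0.409 ± 0.179 (SD, n = 2). The log2 difference was 6.86 at 0 h (SE 0.89, adjusted p = 0.00885, edgeR) and 3.82 at 24 h (SE 0.73, adjusted p = 0.0376, edgeR). The 9 myoblast and myotube markers had a median log2 difference of 4.43 at 0 h, with 1 called. The part of these differences in those of the members was not tested. Epha7 (chromosome 4, 28813131 to 28967499), a receptor for A-type ephrins, was the 1 member called at 24 h, where 0.964% of 17835 genes were called, 0.589% downward. It had 588 and 845 counts in the vector libraries at 24 h (13.0 CPM in both) and 0 counts in both CL5 libraries. Taking 3 counts in each CL5 library as the limit of a count of 0, it was at least 136-fold lower in CL5 (adjusted p = 0.00521, edgeR). At 0 h it was again the 1 member called, where 1.07% of all genes were called, 0.606% downward. There it had 5 and 0 counts in CL5 and 430 and 432 in vector cells, a fitted log2 difference of -7.50 (SE 0.79, adjusted p = 0.00682). The groups were far apart in each library, while the adjusted p rose above 0.01 when any vector library or a CL5 library of 24 h was left out (up to 0.0467 at 24 h and 0.0563 at 0 h). In the siRNA libraries Epha7 was present throughout, at 10.3, 12 and 10 CPM in siCtrl at 0 h and 32.5, 12.7 and 12.9 at 24 h. It was at 39.1, 27.6 and 39.4 CPM with siSMYD3#1 at 24 h (log2 difference 0.93, SE 0.24, adjusted p = 0.0185, edgeR). With siSMYD3#2 it was at 34.3 CPM in the TRIzol and 20.9 and 19.2 in the NucleoSpin libraries (0.39, SE 0.24, adjusted p = 0.377, edgeR). Neither difference passed.

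**Figure D5:**
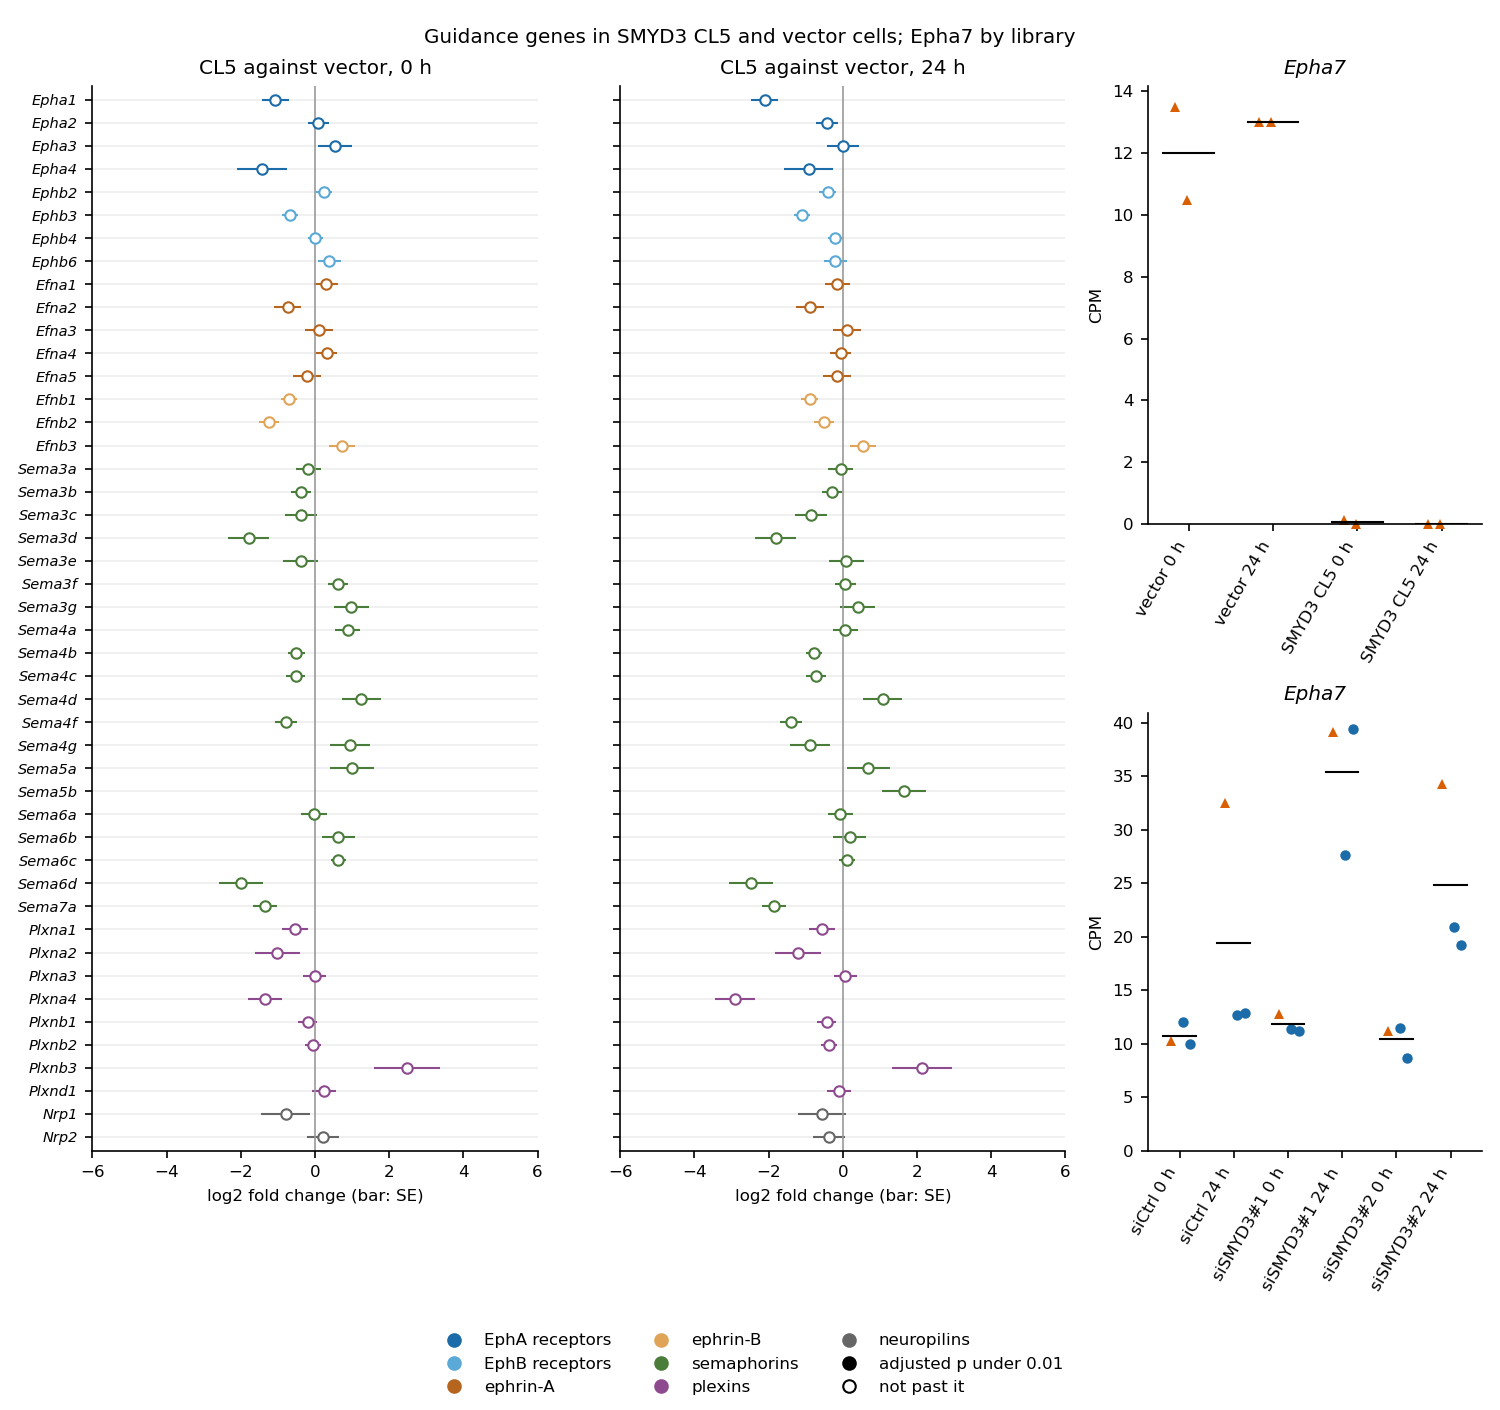
Left and middle, log2 fold change with its SE of the members other than Epha7 in SMYD3 CL5 against vector cells at 0 h and 24 h, coloured by class, with Sema5b omitted at 0 h where the vector libraries were at 3 counts; open points did not pass adjusted p under 0.01 (edgeR). Right, level of Epha7 in CPM in each overexpression library (top) and siRNA library (bottom), with triangles for TRIzol, circles for NucleoSpin and bars for group means: 0 CPM in CL5 at 24 h against 13.0 CPM in vector cells.

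The other members did not pass in CL5 with edgeR at n = 2, though 33 of 47 fitted differences at 24 h were negative, with a median of -0.37 against 0.02 over all genes. Unadjusted p was under 0.05 for 14 of 47 members at 24 h and for 14% of all genes (2488 of 17835). DESeq2 called 7 members, all lower, and 2.51% of all genes lower. The fitted differences and adjusted p-values given next are from edgeR. Sema7a was at 71.9 and 49.6 CPM in CL5 at 24 h and 244 and 196 in vector cells (-1.86, SE 0.32, adjusted p = 0.026). Epha1 was at 13.3 and 10.1 CPM against 57.9 and 43.2 (-2.11, SE 0.37, adjusted p = 0.0265). Plxna4 was at 0.302 and 0.276 CPM against 3.01 and 1.43 (-2.91, SE 0.53, adjusted p = 0.0316), and Ephb3 at 11.7 and 12.7 CPM against 27.4 and 25.1 (-1.11, SE 0.22, adjusted p = 0.0407). None of these 4 genes reached the threshold in edgeR. The CL5 libraries also differed among themselves at both time points. Nrp1 was at 83.9 and 18.5 CPM at 0 h and 109 and 45.8 at 24 h, and Plxna2 at 67.2 and 17.3 CPM at 0 h and 105 and 47.0 at 24 h. Plxnb3, a receptor of class 5 semaphorins, had 50, 20, 96 and 10 counts in the CL5 libraries and 8, 3, 14 and 13 in the vector libraries (0 h, then 24 h). In CPM both CL5 libraries lay above both vector libraries at each time point, without passing the test (2.48, SE 0.89, adjusted p = 0.196 at 0 h and 2.14, SE 0.81, adjusted p = 0.281 at 24 h). Sema5b, likewise low, had 13, 20, 13 and 5 counts against 3, 3, 3 and 5. It met the members' count minimum only through 3 CL5 libraries, so its higher level in CL5 follows from how members were chosen. Sema6d, a plexin ligand, was at 3.96 and 1.38 CPM against 10.6 and 10.7 at 0 h (-1.99, SE 0.59, adjusted p = 0.127) and at 2.88 and 1.01 against 11.6 and 10.5 at 24 h (-2.47, SE 0.60, adjusted p = 0.0817).

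In vector cells, 0 members passed between 0 h and 24 h in edgeR, where 0.00% of all genes did; 9 of 47 members and 7.04% of all genes had an unadjusted p under 0.05. DESeq2 called 2 members, both higher, and 0.571% of all genes higher. Fitted changes and adjusted p-values of single genes below are from edgeR. Sema3c went from 14.8 and 17.8 CPM to 100 and 104 (log2 fold change 2.65, SE 0.46, adjusted p = 0.294), and Epha1 from 10.5 and 8.27 CPM to 57.9 and 43.2 (2.43, SE 0.37, adjusted p = 0.177). Sema3d went from 22.7 and 20.8 CPM to 65.1 and 67.7, and Ephb6 from 63.3 and 55.9 to 147 and 139. All 4 had the direction seen in siCtrl without passing the test. Of the members called in siCtrl, only Sema7a had the opposite sign, from 121 and 178 CPM to 244 and 196 (0.55, SE 0.31, adjusted p = 0.791, edgeR). Efnb2 was at 64.1 and 85.1 CPM at 0 h and 135 and 167 at 24 h (1.02, SE 0.27, adjusted p = 0.456). No CL5 effect differed between the time points (0.00% of all genes and 0 members in edgeR, 1 member and 1.75% of all genes with an unadjusted p under 0.05, and 0 members and 0.0112% of all genes in DESeq2). Myog in vector cells was at 0.409 ± 0.179 CPM at 0 h and 7.15 ± 0.173 CPM at 24 h (SD, n = 2; adjusted p = 0.365, edgeR), and went from 1.05 ± 0.843 to 180.0 ± 110.0 CPM in siCtrl (n = 3).

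The pathway was read further through 48 cytoplasmic effectors of these receptors, such as collapsin response mediators, of which 46 were tested in the siRNA libraries. In siCtrl over time, 5 rose and 4 fell, where 14.6% of all genes rose and 14.8% fell. Rras, a GTPase turned off by plexins, rose by 0.88 on the log2 scale (SE 0.13, adjusted p = 2.82e-05) and Fyn, a kinase downstream of plexins and ephrins, by 0.75 (SE 0.17, adjusted p = 0.00172), while Rnd1, a plexin-binding GTPase, changed by -1.20 (SE 0.28, adjusted p = 0.00243). With siSMYD3#1 at 24 h 0 rose and 3 fell (2.91% and 2.94% of all genes), Cfl2, the muscle cofilin, most clearly (-1.02, SE 0.13, adjusted p = 4.37e-05). Already at 0 h, 3 were lower with siSMYD3#1 (0.853% of all genes), among them Cfl2 (-0.79, SE 0.13, adjusted p = 0.00167, edgeR). With siSMYD3#2 at 24 h 0 rose and 2 fell (1.66% and 2.04% of all genes), the kinase Cdk5 (-0.70, SE 0.10, adjusted p = 0.000218) and the EphA-bound exchange factor Ngef (-0.69, SE 0.14, adjusted p = 0.00342). In CL5, 0 rose and 1 fell at each time point, where 0.589% of all genes fell at 24 h and 0.606% at 0 h. This was Tiam1, a Rac exchange factor, which was at 0.0549 ± 0.0526 CPM at 24 h against 14.3 ± 1.92 in vector cells (SD, n = 2; adjusted p = 0.00192).

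Of 30 genes of the other guidance families, netrins, slits and RGMs with their receptors, 20 were tested. Over time in siCtrl 7 rose and 1 fell, where 14.6% of all genes rose and 14.8% fell. Rgma, a neogenin ligand, rose by 2.03 on the log2 scale (SE 0.18, adjusted p = 1.41e-07) and Robo2, a slit receptor, by 1.62 (SE 0.21, adjusted p = 7.04e-06). Ntng2, a netrin-G, rose by 1.46 (SE 0.41, adjusted p = 0.00826), and the 1 that fell, the netrin receptor Unc5b, changed by -0.81 (SE 0.08, adjusted p = 4.4e-07). Ntn1, netrin-1, was higher with both siRNAs at 24 h, from 51.8 ± 8.21 CPM in siCtrl to 86.5 ± 8.73 with siSMYD3#1 (0.77, SE 0.11, adjusted p = 0.000138) and 75 ± 12.2 with siSMYD3#2 (0.54, SE 0.11, adjusted p = 0.00494; SD, n = 3). In all, 3 of these genes rose and 1 fell with siSMYD3#1, with Ntn4 at 1.02 (SE 0.19, adjusted p = 0.00171), where 2.91% of all genes rose and 2.94% fell. With siSMYD3#2, 1 rose and 0 fell, where 1.66% and 2.04% of all genes did. In CL5, 0 rose and 2 fell at each time point (0.589% of all genes fell at 24 h and 0.606% at 0 h): Slit2 was at 0.654 ± 0.573 CPM at 24 h against 38.1 ± 5.49 (adjusted p = 0.00454) and Unc5c at 1.24 ± 0.454 CPM against 37.6 ± 7.40 (SD, n = 2; adjusted p = 0.00141).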

How the data were processed

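RNA-Seq counts of 26 C2C12 libraries were used. The authors prepared stranded mRNA libraries, sequenced them as paired ends, aligned the reads to GRCm38 with HISAT2 2.1.0 and counted them with featureCounts (Subread 1.6.3), and deposited the raw count per gene without normalization; the strand setting and annotation release are not given in the sources used here. Of 55341 gene identifiers, 54495 were in GENCODE M21, which gave symbols, coordinates and exon lengths, and 846 were not. Groups came from the sample labels, and extraction method and replicate number from the study's sample list. The study's methods describe the RNA as coming from biological replicates, and the labels do not say whether libraries of a group came from separate cultures. The p-values measure the spread between these libraries.

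Counts were tested with edgeR 4.0.16 in R 4.3.3 (filterByExpr, TMM, robust quasi-likelihood, Benjamini-Hochberg adjustment over all genes, threshold 0.01). The 18 siRNA libraries were fitted as 6 groups with extraction as covariate (15820 genes), and the 8 overexpression libraries as 4 groups (17835 genes). The SE is the log2 fold change divided by the square root of F. Scripts were tested on simulated counts. Members, lists and tests were chosen with earlier results of these data known. Genes named were up to 5 members with the largest change among those called per main comparison, the highest per class, and pathway examples; other members of the called set, of the CL5 comparison and of the extraction comparison were named after their values were seen. Alternatives were RLE scaling, DESeq2 1.42.0, no count filter, a threshold of 0.05, all libraries in 1 fit, a replicate block, no extraction covariate, NucleoSpin libraries alone, and each library left out. Same-numbered siRNA libraries deviated together (correlations 0.366 to 0.851), partly because the numbers follow extraction, while in the overexpression libraries the correlations were -0.097 (24 h) and 0.145 (0 h) between lines, and -0.008 (vector) and 0.483 (CL5) between time points, so that not every pair exceeded 0.1. Floors of 3 counts per library cover counting error only.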

Additional observations from a re-analysis of the deposited data

Results flagged for a closer look

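The results here stand out because every library of one contrast moved one way and every library of the other the opposite way; values are differences of log2 ratios of mean CPM.

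Between 24 h and 0 h, Sema7a moved by -1.12 in siCtrl and by 0.55 in vector cells, a difference of -1.67, and Nrp1 by -0.37 and 0.36, a difference of -0.73. These 2 differences lie between experiments scaled and extracted differently and were not tested.

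Between vector cells and CL5, the change over time in Sema4g differed by 1.86 (0.78 in vector cells, -1.08 in CL5), and that in Sema6c by 0.52. In CL5, Sema4g was at 1.46 and 0.538 CPM at 0 h and 0.533 and 0.414 at 24 h, so its time points nearly touched. Those 4 levels rest on 9 to 58 counts. Read as the CL5 effect at 24 h against 0 h, Sema4g differed by -1.86 and Ephb2 by -0.65. The fitted edgeR difference did not pass for Sema4g (-1.83, SE 0.76, adjusted p = 1.0) or Ephb2 (adjusted p = 1.0).

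For siSMYD3#1 against siCtrl, Plxna2 was at -0.34 at 24 h and 0.32 at 0 h, a difference of -0.66, and the fitted difference did not pass (adjusted p = 0.0844, edgeR).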

How the results depend on the processing

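Each of the 23 calls of a member in a comparison kept its direction under every alternative run. All 23 held with DESeq2 and with RLE scaling, and 22 held without the count filter. A threshold of 0.05 keeps every call made at 0.01 in the same fit, so it is no check of them. With the replicate block 22 held and Sema6a over time was lost (adjusted p = 0.0133); the block changed no other of these calls. Of the 21 siRNA calls, 18 held in the NucleoSpin libraries alone and 7 without the extraction covariate, and of all 23, 14 held with the 26 libraries in 1 fit.

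Counts of members called moved by over 1.5 times as follows. Over time in siCtrl, 14 became 22 without the count filter, 5 without the extraction covariate and 23 at a threshold of 0.05. For siSMYD3#1 at 24 h, 2 became 10 without the filter, 1 without the covariate, 8 in the NucleoSpin libraries alone, 6 with DESeq2, 0 in 1 fit and 7 at 0.05. For siSMYD3#2 at 24 h, 3 became 6 without the filter, 0 without the covariate, 5 in NucleoSpin libraries and 0 in 1 fit. For siSMYD3#1 at 0 h, 1 became 3 without the filter, 0 without the covariate, 2 in NucleoSpin libraries and 0 in 1 fit. Between the siRNAs, 1 became 6 without the filter, 11 in NucleoSpin libraries, 3 with DESeq2, 0 in 1 fit and 6 at 0.05. For CL5 at 24 h, 1 became 8 without the filter, 2 with the replicate block, 7 with DESeq2, 9 in 1 fit and 5 at 0.05; at 0 h, 1 became 7 without the filter, 3 with DESeq2 and 4 in 1 fit. For vector cells over time, 0 became 5 without the filter, 2 with DESeq2 and 2 in 1 fit, and for the siSMYD3#1 difference between time points, 0 became 3 without the filter and 2 in NucleoSpin libraries. The cause of these shifts was not tested.

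With each library left out in turn, the counts ran from 10 to 16 over time in siCtrl, from 1 to 4 for siSMYD3#1 and from 1 to 3 for siSMYD3#2 at 24 h, from 0 to 1 for siSMYD3#1 and 0 to 0 for siSMYD3#2 at 0 h, and from 1 to 2 between the siRNAs. They ran from 0 to 7 for CL5 at each time point, from 0 to 3 for vector cells over time, from 0 to 1 for the siSMYD3#1 difference and from 0 to 0 for the siSMYD3#2 and CL5 differences. For CL5 at 24 h, 7 members were called without either CL5 library of 0 h and 0 without any other library; at 0 h, 7 were called without 1 of the CL5 libraries of 0 h.

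Levels under about 1 CPM, as for Sema6b, Plxna4, Plxnb3 and Sema5b, rest on few counts. With 2 libraries a line, the CL5 comparisons resolve only large differences.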
